A study of Mus musculus with 5 samples.

Results

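Collagens are secreted or membrane-bound proteins whose alpha chains wind around one another into a rope-like helix. Fibrillar chains assemble into the banded fibres that give bone, tendon and skin their strength. Network chains form sheets, among them basement membranes, and beaded type VI chains form microfibrils around cells. FACIT chains (fibril-associated collagens with interrupted helices) sit on the surface of fibrils, and transmembrane chains are anchored in the plasma membrane. Stromal cells of the bone marrow are a main source of type I collagen in marrow and bone.

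Collagen chain genes were taken as all rows of the expression table whose mouse Ensembl ID carries a symbol of the form Col, number, a, number. The rule found 44 genes among 55401 rows, and 21 of them averaged 1 FPKM or more across libraries, as did 12113 genes in all. FPKM is a level per kilobase of exon that takes account of how many reads a library has. By class, 8 of 11 fibrillar, 4 of 9 network, 3 of 6 beaded, 3 of 9 FACIT and 1 of 4 transmembrane genes reached that level, and so did Col18a1 and Col7a1. RNA-seq came from mesenchymal stem cells of wild-type mouse bone marrow (BMSCs), adherent cells able to turn into osteoblasts, adipocytes or chondrocytes. They were grown for 72 h, and negative pressure from a vacuum pump was applied at -80, -120, -160 or -200 mmHg for 48 h, while the control culture stayed at 0 mmHg. A single library represents each of the 5 conditions, and the labels give no strain, age or sex and do not say whether marrow was pooled. No difference therefore has a replicate check, no p-value is given, and every interval covers the counting of reads only. Because the samples are bulk cultures, fewer cells of a type and less RNA per cell cannot be told apart.

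Library totals recovered from the FPKM values lay between 16600622 and 18398911 reads. The control library stood apart from the pressure libraries. It held 2540 reads in 12 Y-linked genes that had 0 reads in every pressure library, so a different origin of its cells and an effect of pressure cannot be told apart in any comparison with it. Of 11 stromal markers 9 were measured by the same limit, with a sum of 1203 to 1396 FPKM under pressure and 2268 FPKM in the control. The lower sum rests on Ly6a (622 to 828 FPKM under pressure, 1741 FPKM in the control), and the other 10 summed to 544 to 581 FPKM under pressure and 528 FPKM in the control. The sum of these 10 hides differences in both directions. Pdgfra (63.7 to 71.5 FPKM under pressure, 44.3 FPKM in the control), Itgb1 and Eng were higher in every pressure library. So was Thy1, with 1.001 to 1.83 FPKM under pressure and 0.018 FPKM in the control. Below the filter, Nt5e (0.875 to 1.28 and 0.322 FPKM) and Lepr (0.205 to 0.393 and 0.031 FPKM) were higher too. Lower in every pressure library were Cxcl12 (129 to 139.8 FPKM under pressure, 201 FPKM in the control), Cd44 and Pdgfrb. Vcam1 was lower as well (8.35 to 9.58 FPKM under pressure, 17.8 FPKM in the control). The summed level of 7 macrophage markers was 66.8 to 74.8 FPKM under pressure and 27.5 FPKM in the control. The 3 measured ones, Cd14 (50.3 to 55.6 FPKM under pressure, 23.6 FPKM in the control), Lyz2 and Cd68, were higher in every pressure library. Without Cd14 the sum was 15.9 to 19.2 FPKM under pressure and 3.96 FPKM in the control. Of the list members below the filter, Ptprc, Itgam and Adgre1 had at most 2 reads in any library. Csf1r had 0.366 to 0.427 FPKM under pressure and 0.094 FPKM in the control. The 6 chondrocyte markers summed to 3.02 to 4.14 FPKM under pressure and 8.14 FPKM in the control, with Acan and Col2a1 at or below 9 reads. That difference rests on Sox9 (2.10 to 3.02 FPKM under pressure, 7.60 FPKM in the control), while Comp had 0.859 to 1.22 FPKM under pressure and 0.33 FPKM in the control. The 5 endothelial markers summed to 3.39 to 4.95 FPKM under pressure and 1.09 FPKM in the control, with Cdh5 at no more than 2 reads. Most of that difference was Plvap (2.70 to 4.18 FPKM under pressure, 0.711 FPKM in the control). Without it the sum was 0.592 to 0.765 FPKM under pressure and 0.374 FPKM in the control. Of 6 epithelial markers 3 were at 0 in all libraries. The 6 osteoblast markers summed to 6.76 to 7.98 FPKM under pressure and 7.13 FPKM in the control. Of these Runx2 had 5.79 to 6.90 FPKM under pressure and 3.49 FPKM in the control, and Alpl 0.894 to 1.28 and 3.03 FPKM. The 5 pericyte and smooth muscle markers summed to 360 to 399 FPKM under pressure and 352 FPKM in the control, nearly all from Acta2. The part of these differences in the collagen results was not tested.

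The first question was which collagen chains stood higher or lower under negative pressure than in the control. A chain passed the size rule when log2(FPKM + 1) differed by at least 1, which understates the change of genes with low values. The type VI chain genes Col6a3 and Col6a2 and the type V chain gene Col5a3 were lower at all 4 pressures. The fibrillar gene Col27a1, the basement membrane gene Col4a5 and the transmembrane gene Col23a1 were higher at all 4. That makes 3 of 21 measured chains lower and 3 of 21 higher, against 4.46% and 6.49% of all genes tested. Col27a1 and Col23a1, at 0.313 FPKM each in the control, passed the filter of 1 FPKM only through the pressure libraries. Because 4 of the 5 libraries in that mean are under pressure, the filter favours genes that are higher there, also among all genes. Another 12 of the 21 chains passed the rule at no pressure, against 78.1% of all genes. The library at -80 mmHg had 5 chains higher and 3 lower (background 10.7% and 6.89%), and that at -120 mmHg had 3 of each (8.85% and 6.45%). The -160 mmHg library had 4 of each (9.59% and 6.03%), as did the -200 mmHg library (9.1% and 6.38%). When values were rescaled so that the trimmed mean of log ratios was 0, the split was 3 higher and 3 lower for -80 mmHg, and 3 higher and 5 lower for both -160 and -200 mmHg. Under quantile normalization 2 chains were higher and 3 lower at -200 mmHg. The number higher at all 4 pressures was 1 under quantile normalization, which left Col4a5, and 0 with a pseudocount of 5, while 3 were lower at all 4 in both cases. The shares of all genes are those of the main setting, so the counts under these alternatives have no background beside them.

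**Figure D1:**
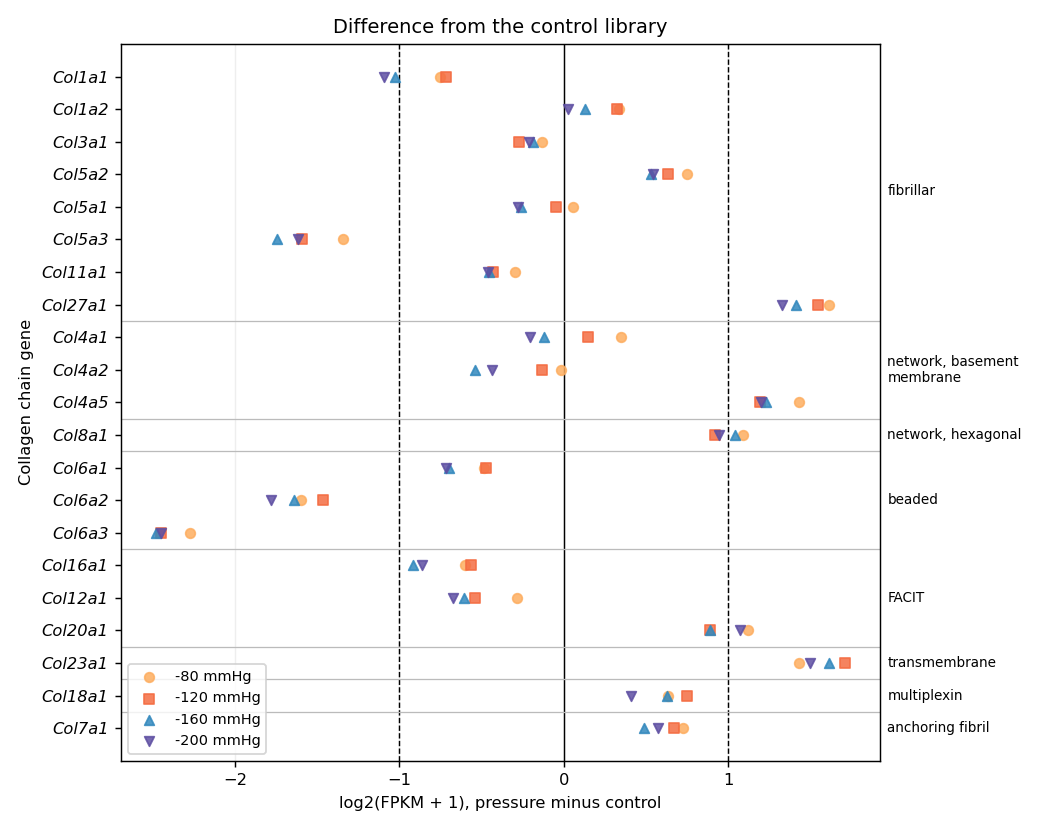
Difference in log2(FPKM + 1), pressure minus control, for the 21 measured collagen chain genes, grouped by class, with 1 point for each pressure library and dashed lines at the size rule. The 4 points of a gene lie close together, Col6a3, Col6a2 and Col5a3 lie left of the lower line at every pressure, and Col27a1, Col4a5 and Col23a1 lie right of the upper line.

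The median log2 change of the 21 chains was 0.06, -0.04, -0.18 and -0.21 with increasing pressure, from -80 to -200 mmHg. The median of all genes tested was 0.16, 0.14, 0.15 and 0.14 in the same order, so the median chain lay below the median gene at each pressure. Under quantile normalization this turned round at -80 mmHg (0.36 for the chains, 0.03 for all genes) and -120 mmHg (0.10 and 0.03). Single chains ranged from -2.48 to 1.71. Collagen genes have long transcripts, with a median of 7833 nt of exon among the 21 chains against 4058 nt among all genes tested. The 4641 other genes with at least 5000 nt of exon had medians of 0.28 to 0.36 under pressure, above the median of all genes. With the trend with exon length removed, the medians of the chains were -0.19, -0.26, -0.37 and -0.36, and those of all genes stayed at 0.14 to 0.16. Beyond this setting the part of length in the difference was not tested.

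Among the 6 genes past the rule at all 4 pressures, the sequence before a RefSeq start was free of annotated exons for Col6a3, Col6a2, Col5a3, Col27a1 and Col23a1. Those 250 bases, from RefSeq on GRCm38.p6, are printed here because these genes passed the size rule in 1 direction at all 4 pressures. They lie at chr1:90843972-90844221 (minus strand) for Col6a3 and chr10:76623631-76623880 (minus) for Col6a2. Those of Col5a3 lie at chr9:20815068-20815317 (minus), of Col27a1 at chr4:63215162-63215411 (plus) and of Col23a1 at chr11:51289670-51289919 (plus). The Col27a1 window lies inside the gene as annotated in GENCODE M21, between exons, and the Col4a5 window is not shown because it holds exon bases. Capitals mark matches to the CCAAT box (CCAAT) and the GC box (GGGCGG), on either strand, read 5′ to 3′ in the direction of the gene.
Col6a3: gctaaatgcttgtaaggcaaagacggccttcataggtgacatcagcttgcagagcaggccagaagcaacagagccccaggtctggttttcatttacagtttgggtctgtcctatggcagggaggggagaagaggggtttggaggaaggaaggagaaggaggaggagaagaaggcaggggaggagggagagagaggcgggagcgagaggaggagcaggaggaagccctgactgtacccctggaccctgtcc
Col6a2: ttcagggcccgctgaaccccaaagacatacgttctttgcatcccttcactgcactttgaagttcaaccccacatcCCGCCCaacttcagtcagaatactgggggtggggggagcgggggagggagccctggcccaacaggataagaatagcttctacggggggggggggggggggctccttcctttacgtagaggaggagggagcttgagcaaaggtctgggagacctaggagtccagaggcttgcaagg
Col5a3: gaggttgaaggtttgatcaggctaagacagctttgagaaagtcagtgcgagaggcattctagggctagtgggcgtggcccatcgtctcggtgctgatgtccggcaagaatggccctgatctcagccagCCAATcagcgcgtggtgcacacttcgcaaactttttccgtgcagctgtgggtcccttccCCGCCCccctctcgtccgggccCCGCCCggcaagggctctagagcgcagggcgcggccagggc
Col27a1: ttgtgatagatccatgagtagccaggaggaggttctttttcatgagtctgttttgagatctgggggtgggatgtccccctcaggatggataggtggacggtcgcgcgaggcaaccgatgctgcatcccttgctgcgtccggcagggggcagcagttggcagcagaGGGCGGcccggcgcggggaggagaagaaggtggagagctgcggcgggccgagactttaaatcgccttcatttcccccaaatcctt
Col23a1: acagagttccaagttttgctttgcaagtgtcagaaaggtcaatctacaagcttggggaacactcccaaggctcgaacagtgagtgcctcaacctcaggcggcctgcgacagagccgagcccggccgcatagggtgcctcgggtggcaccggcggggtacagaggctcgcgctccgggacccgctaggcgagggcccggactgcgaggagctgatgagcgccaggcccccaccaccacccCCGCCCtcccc
The Col6a3 window held neither motif, nor the TATA motif TATAAA, which was absent from all 5. Col5a3 had 2 GC box matches and 1 CCAAT match, and Col6a2 (at the upstream one of its RefSeq starts), Col27a1 and Col23a1 had 1 GC box match each. The window at the other Col6a2 start, not shown because it holds exon bases of that gene, had 3 GC box matches. Of 32851 promoter windows of this length 32.7% held GGGCGG, 33.8% held CCAAT and 12.4% held TATAAA. Among the 38 windows of the 35 collagen genes with an entry these shares were 57.9%, 34.2% and 13.2%. A match describes letters only and is not evidence of binding.

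Type VI collagen, the beaded microfibril that links cells to the surrounding matrix, is assembled from the products of Col6a1, Col6a2 and Col6a3 in most tissues. Its chains differed from the control by unequal amounts. Col6a3 (chr1:90765923-90843971, minus strand, GENCODE M21) had 4.57, 3.93, 3.82 and 3.93 FPKM at -80, -120, -160 and -200 mmHg, against 25.9 FPKM in the control. Its log2 change was -2.48 to -2.27, and its reads at -200 mmHg were 0.152 of the control's after scaling to library totals (95% Clopper-Pearson interval 0.141 to 0.163). The pressure libraries lay close together and far below the control. Col6a2 (chr10:76595762-76623630, minus) had 21.6, 23.7, 20.9 and 18.9 FPKM under the same pressures and 67.3 FPKM in the control, a log2 change of -1.78 to -1.46. Col6a1, its neighbour at chr10:76708792-76726168 (minus), had 143, 144, 123 and 121 FPKM under pressure and 200.2 FPKM in the control. Col6a1 was below the control in every pressure library but passed the rule at none, with a log2 change of -0.72 to -0.48.

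The level of Col6a1 was 30.9 to 36.6 times that of Col6a3 under pressure and 7.72 times in the control. The ratio of Col6a1 to Col6a2 was 5.87 to 6.61 under pressure and 2.98 in the control. The counting intervals of both ratios in every pressure library lay above those in the control (for Col6a1 to Col6a3, 28.8 to 33.1 at -200 mmHg and 7.49 to 7.95 in the control). Per kilobase of the longest coding transcript in place of all exons, a setting added after the data were seen, Col6a1 to Col6a3 was 27.8 to 33.0 under pressure and 6.96 in the control. On that length Col6a1 to Col6a2 was 3.50 to 3.95 under pressure and 1.78 in the control. The alternative type VI genes Col6a4, Col6a5 and Col6a6 had 107, 3 and 1 reads over all 5 libraries. The 6 beaded genes summed to 169, 172, 148 and 144 FPKM at -80, -120, -160 and -200 mmHg and 294 FPKM in the control.

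Type I collagen, the main fibre of bone, is normally made of both alpha 1 chains, from Col1a1, and alpha 2 chains, from Col1a2. Col1a1 (chr11:94936224-94953042, plus) had 551, 564, 455 and 435 FPKM at the 4 pressures, against 929.6 FPKM in the control. It was below the control in every pressure library, but passed the rule only at -160 and -200 mmHg, where its log2 change was -1.03 and -1.09. Under quantile normalization these changes were -0.38 and -0.53, and it passed at neither. Col1a2 (chr6:4504814-4541544, plus) had 574, 567, 496 and 463 FPKM under pressure, against 454 FPKM in the control. Its log2 change was 0.03 to 0.34, and no pressure passed the rule.

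The Col1a1 level was therefore 0.918 to 0.995 times that of Col1a2 under pressure and 2.05 times in the control. In relative terms the ratio under pressure was 0.448 to 0.486 of that in the control, whichever length is used. The absolute ratio does depend on the gene model, since the annotated exons of Col1a2 cover 12426 nt and its longest coding transcript 5348 nt. Per kilobase of the longest coding transcript the ratio was 0.437 to 0.474 under pressure and 0.976 in the control. By level Col1a1 ranked 58, 59, 73 and 82 among all genes at -80, -120, -160 and -200 mmHg and 53 in the control, and Col1a2 ranked 54, 57, 65 and 78 under pressure and 124 in the control.

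**Figure D2:**
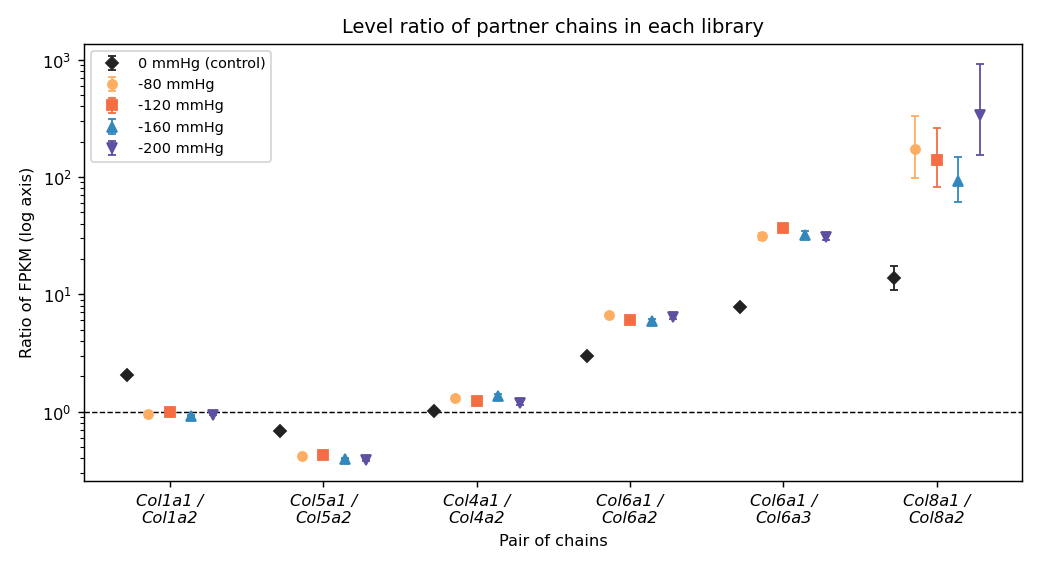
Ratio of the FPKM of 2 chain genes of the same collagen type in each library, on a log axis, with exact 95% counting intervals, and a dashed line where both genes have the same level. Col1a1 to Col1a2 is 0.918 to 0.995 in the pressure libraries and 2.05 in the control, whereas Col6a1 to Col6a3 is 30.9 to 36.6 in the pressure libraries and 7.72 in the control.

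Type V collagen mixes into type I fibrils and sets their diameter, and its chain genes took different directions. Col5a3 (chr9:20770050-20815067, minus), which encodes a less common type V chain, had 12.8, 10.6, 9.45 and 10.4 FPKM under pressure, against 34.1 FPKM in the control. All 4 pressure libraries were below the control, with a log2 change of -1.75 to -1.34 and a read ratio of 0.306 at -200 mmHg (0.287 to 0.326). Col5a2 (chr1:45374321-45503282, minus) had 134, 124, 115 and 116 FPKM under pressure and 79.2 FPKM in the control, with a log2 change of 0.53 to 0.75, below the rule. Col5a1 had 56.7, 52.8, 45.3 and 44.8 FPKM under pressure and 54.5 FPKM in the control, so the control lay within the range of the pressure libraries. It shares 99 and 113 exon bases with a pair of genes on the opposite strand, 2810430I11Rik and Gm13372. Its ratio to Col5a2 was 0.387 to 0.427 under pressure and 0.688 in the control.

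Col3a1, the type III chain of soft connective tissue and the neighbour of Col5a2 on chromosome 1, had 223, 203, 215 and 211 FPKM under pressure and 245 FPKM in the control. Its log2 change was -0.27 to -0.13, and 141 of its exon bases are shared with the annotated gene Gm47302 on the same strand. Col11a1, a minor fibrillar chain best known from cartilage, had 4.4, 3.92, 3.84 and 3.82 FPKM under pressure and 5.63 FPKM in the control. Its partner Col11a2 fell just outside the filter, with a mean of 0.999 FPKM, and the nearest chain inside it was Col7a1, with a mean of 1.89 FPKM. It had 127, 109, 78 and 105 reads under pressure and 179 reads in the control.

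Col27a1 (chr4:63214004-63334991, plus), a fibrillar chain of developing cartilage, went the other way. It had 3.01, 2.84, 2.50 and 2.31 FPKM under pressure and 0.313 FPKM in the control, a log2 change of 1.33 to 1.61. In reads this was 653, 613, 554 and 542 under pressure and 75 in the control, a ratio of 7.36 at -200 mmHg (5.78 to 9.50). With a pseudocount of 5 its log2 change was 0.46 to 0.59, past the rule at no pressure. Under quantile normalization it missed the rule at -160 mmHg (0.92) and -200 mmHg (0.86), and with the length trend removed it missed it at -200 mmHg (0.99). The 11 fibrillar genes summed to 1561, 1529, 1343 and 1287 FPKM at -80, -120, -160 and -200 mmHg and 1803 FPKM in the control, most of it from Col1a1, Col1a2, Col3a1 and Col5a2. Col2a1, the cartilage fibre, had at most 9 reads in any library, and Col24a1 had 17 to 33 reads. Over the 4 pressures the mean fibrillar sum was 0.793 of the control, and 1.14 under quantile normalization, which gives the opposite direction.

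**Figure D3:**
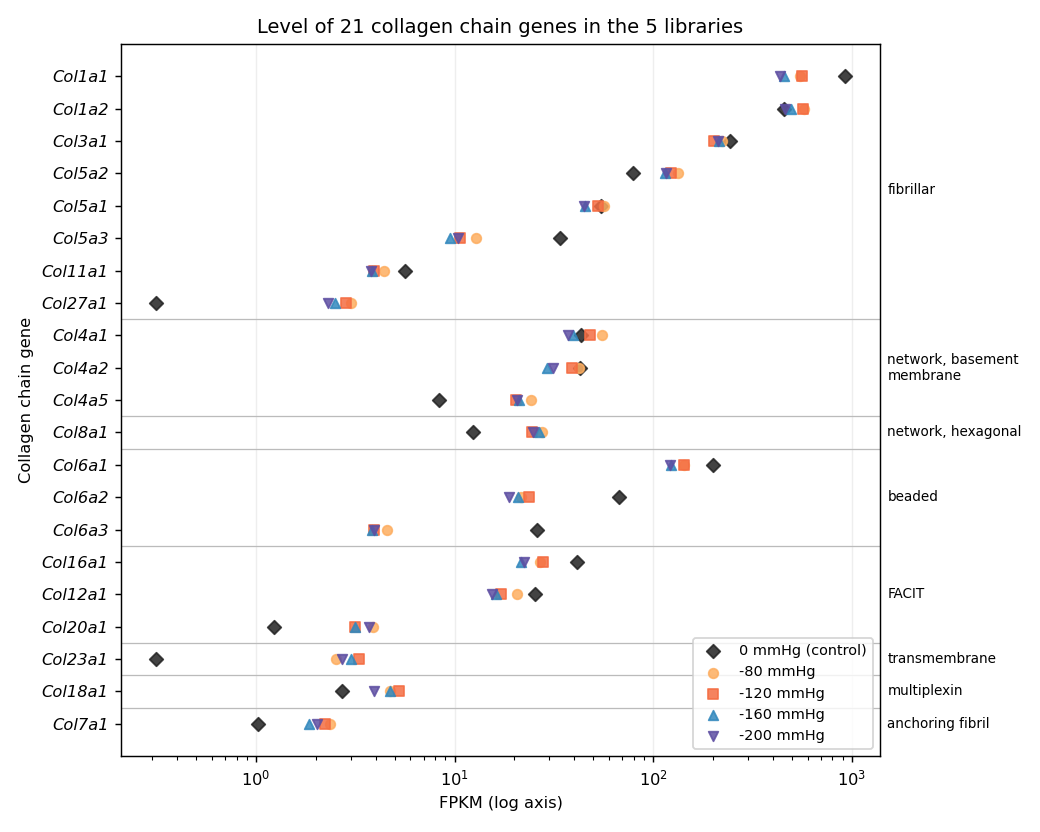
FPKM, on a log axis, of the 21 measured collagen chain genes in each of the 5 libraries, grouped by class and ordered by mean level within a class. Levels span from 0.313 FPKM (Col27a1 and Col23a1 in the control) to 929.6 FPKM (Col1a1 in the control), and the control point lies outside the range of the pressure points for all but Col5a1 and Col4a1.

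Type IV collagen is the network of basement membranes. Its common chains are encoded by Col4a1 (chr8:11198423-11312826, minus) and Col4a2 (chr8:11312805-11449287, plus), which lie head to head and share 22 bases of annotated exon on opposite strands. Col4a1 had 55.2, 47.9, 39.6 and 37.3 FPKM at -80, -120, -160 and -200 mmHg, against 43.1 FPKM in the control. Col4a2 had 42.4, 39.0, 29.2 and 31.4 FPKM under pressure, against 42.9 FPKM in the control. Neither passed the rule at any pressure, and the control lay within the range of the pressure libraries for Col4a1 and just above it for Col4a2. Their ratio was 1.19 to 1.36 under pressure and 1.005 in the control, the closest to the control of the 6 pairs compared. Per kilobase of the longest coding transcript it was 1.31 to 1.49 under pressure and 1.11 in the control.

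Col4a5 (chrX:141475385-141689234, plus), a chain of kidney and other specialised basement membranes, had 24.3, 20.5, 21.1 and 20.6 FPKM under pressure, against 8.39 FPKM in the control. Its log2 change was 1.19 to 1.43, and its read ratio at -200 mmHg was 2.46 (2.28 to 2.64). With a pseudocount of 5 it passed the rule only at -80 mmHg. Col4a6, its neighbour on the X chromosome in the opposite direction, had 15, 18, 25 and 24 reads under pressure and 6 reads in the control. Col4a3 and Col4a4, the other specialised chains, had at most 9 and 28 reads.

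Col8a1 (chr16:57624258-57754737, minus), a chain of the hexagonal network found beneath endothelia, had 27.7, 24.5, 26.7 and 24.95 FPKM under pressure, against 12.5 FPKM in the control. It passed the rule at -80 mmHg (log2 change 1.09) and at -160 mmHg (1.04) and lay just short of it at -120 mmHg (0.92) and -200 mmHg (0.95). With the trimmed mean set to 0 it passed at none (0.92 at -80 mmHg and 0.86 at -160 mmHg). Its partner Col8a2 had 12, 13, 22 and 6 reads under pressure and 75 reads in the control, below the filter, with a read ratio of 0.082 at -200 mmHg (0.029 to 0.186). The ratio of Col8a1 to Col8a2 was 92.6 to 337 under pressure and 13.7 in the control. Per kilobase of the longest coding transcript it was 137 to 499 under pressure and 20.3 in the control. Col10a1, the chain of hypertrophic cartilage, had at most 6 reads in any library. The 9 network genes summed to 150.1, 132, 117 and 115 FPKM under pressure and 108 FPKM in the control.

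Of the FACIT genes, Col12a1 and Col16a1 stood below the control in every pressure library without passing the rule. Col12a1, which decorates type I fibrils, had 20.6, 17.0, 16.2 and 15.5 FPKM under pressure and 25.3 FPKM in the control. Col16a1 (chr4:130047840-130099283, plus) had 27.1, 27.8, 21.5 and 22.4 FPKM under pressure and 41.6 FPKM in the control, with a log2 change of -0.92 to -0.56. With the trimmed mean set to 0 it passed the rule at -160 mmHg (-1.09) and -200 mmHg (-1.02). Col20a1 had 3.87, 3.14, 3.14 and 3.72 FPKM under pressure and 1.24 FPKM in the control, past the rule at -80 mmHg (1.12) and -200 mmHg (1.08), but not with the trimmed mean set to 0 (0.98 and 0.95). It shares 79 exon bases on the same strand with the annotated gene BX649560.1, so reads from those bases fit either gene. Col14a1, below the filter, had 88, 80, 120 and 94 reads under pressure and 47 reads in the control.

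Col23a1 (chr11:51289920-51583918, plus), a transmembrane chain, had 2.54, 3.31, 3.01 and 2.70 FPKM under pressure, against 0.313 FPKM in the control. Its log2 change was 1.43 to 1.71, and its reads at -120 mmHg were 10.6 times those in the control (7.38 to 15.6, from 315 reads at -120 mmHg and 33 in the control). With a pseudocount of 5 its log2 change was 0.50 to 0.65, past the rule at no pressure, and under quantile normalization it missed the rule at -80 mmHg (0.94). The other transmembrane genes were near silent: Col13a1 had 0 reads in every library, Col17a1 had 8 to 19 reads and Col25a1 had at most 0.0542 FPKM. Col18a1, whose product carries the endostatin fragment, had 4.75, 5.25, 4.74 and 3.94 FPKM under pressure and 2.71 FPKM in the control. Col7a1, the anchoring fibril chain of skin, had 2.35, 2.22, 1.85 and 2.02 FPKM under pressure and 1.02 FPKM in the control. Both stayed below the rule, with log2 changes of 0.41 to 0.75 and 0.49 to 0.73.

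Of the 23 genes below the filter, Col9a1 and Col13a1 had 0 reads in all 5 libraries, which allows a level of up to 3 reads per library. Col28a1 had 4, 9, 0 and 5 reads under pressure and 42 reads in the control. Col9a3 had 26 to 42 reads under pressure and 44 reads in the control, and it shares 234 exon bases with Tcfl5 on the opposite strand. Col9a2 had 8, 0, 8 and 3 reads under pressure and 0 reads in the control. Col15a1, Col19a1, Col22a1 and Col26a1 had 21, 5, 2 and 2 reads over all libraries.

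Comparisons among the 4 pressure libraries do not use the control, and ask whether chain levels depend on how strong the pressure is. No chain passed the size rule between any pair of pressures, where 0.826% to 0.974% of all genes did (0.883%, 0.9% and 0.826% for -120, -160 and -200 against -80 mmHg, 0.974% and 0.85% for -160 and -200 against -120 mmHg, and 0.9% for -200 against -160 mmHg). None of the 21 was ordered by pressure with a difference of at least 1, over the 4 pressures (background 0.173%) or from the control on (0.768%). With background shares this small, finding none among 21 chains does not set them apart from all genes. Below the size rule the chains leaned to 1 side. At -200 mmHg 20 of the 21 chains were lower than at -80 mmHg, against 52.5% of all genes tested, with a median log2 difference of -0.23 against -0.01 for all genes. This pattern was picked out after the values were seen. Among the 4641 other genes with at least 5000 nt of exon 67.0% were lower at -200 than at -80 mmHg, with a median of -0.07, and with the length trend removed the median of the chains was -0.19.

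Col4a1 had the largest such difference, at -0.56 on the log2 scale, and its reads at -200 mmHg were 0.675 of those at -80 mmHg (0.650 to 0.700). Col4a2 followed at -0.42 (0.740, 0.709 to 0.773), then Col12a1 at -0.39 (0.753, 0.723 to 0.784). Col1a1 and Col1a2 differed by -0.34 and -0.31, with read ratios of 0.789 and 0.807. The 1 exception was Col23a1, at 0.07, where the counting interval of the read ratio included 1 (0.894 to 1.27). Among the lower chains, the interval of Col20a1 also included 1 (0.960, 0.824 to 1.12). The 6 chains Col1a2, Col5a1, Col11a1, Col27a1, Col4a1 and Col12a1 were lower at each of the 3 steps, against 6.19% of all genes, and 0 were higher at each step, against 5.67%. The chains together took 1.74%, 1.69%, 1.5% and 1.44% of the reads at -80, -120, -160 and -200 mmHg and 1.89% in the control. Of the summed FPKM they took 0.649%, 0.615%, 0.543% and 0.509% in the same order and 0.629% in the control. By that measure the share at -80 mmHg lay above the control. The SD of the -200 minus -80 mmHg difference over all genes was 0.24, and 1 library per pressure gives no measure of how far cultures at the same pressure differ.

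**Figure D4:**
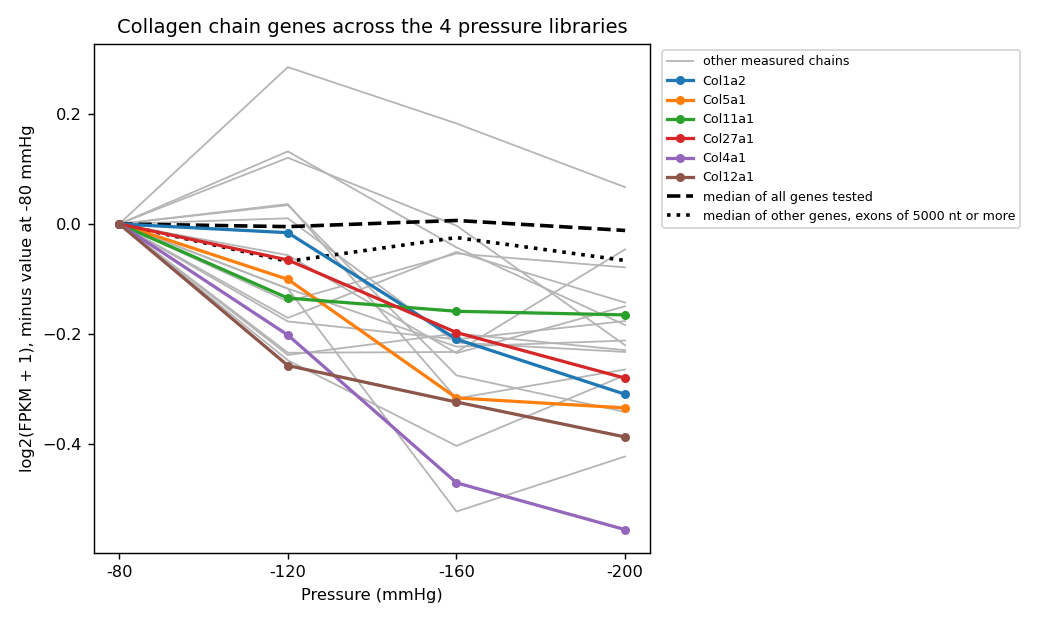
Difference in log2(FPKM + 1) from the -80 mmHg library across the 4 pressure libraries, with 1 line for each of the 21 chains, coloured for the 6 that were lower at every step, and the medians of all genes tested (dashed) and of other genes with at least 5000 nt of exon (dotted). By -200 mmHg 20 of 21 lines are below 0, and the lowest, Col4a1, is at -0.56.

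Chains are modified, folded, trimmed and crosslinked by a dedicated set of proteins, which the cell must supply for a chain to become a fibre. Of 36 genes on a list of collagen modification, folding, export, trimming and crosslinking, 32 were measured. By the rule 3 of these lay above the control in every pressure library (6.49% of all genes) and 2 below it in every one (4.46%), while 23 met the rule nowhere (78.1%). At single pressures 5, 4, 4 and 3 were higher and 2, 4, 4 and 3 lower, against the backgrounds given above. Their median log2 change was 0.06, 0.15, 0.17 and 0.11, beside 0.14 to 0.16 for all genes. After rescaling by the trimmed mean, 3 were higher and 4 lower for -80 mmHg, and 3 higher and 5 lower for both -160 and -200 mmHg. Quantile normalization gave 4 higher and 4 lower for -80 mmHg. These rescaled counts also have no share of all genes beside them.

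Adamts2, which removes the amino end of procollagen, had 58.7, 66.0, 57.0 and 50.7 FPKM at -80, -120, -160 and -200 mmHg, against 7.12 FPKM in the control. Its relative Adamts3 had 1.19 to 1.58 FPKM under pressure and 0.020 FPKM in the control, so it passed the filter only through the pressure libraries. Plod2, the lysyl hydroxylase that acts on the chain ends, had 19.2 to 23.2 FPKM under pressure and 5.83 FPKM in the control, whereas Plod1 had 22.3 to 26.7 FPKM under pressure and 39.3 FPKM in the control. The lower genes were Loxl1, a lysyl oxidase-like crosslinking enzyme (26.1 to 32.1 FPKM under pressure, 134 FPKM in the control), and P4ha2, a prolyl hydroxylase subunit (14.3 to 16.1 FPKM under pressure, 35.4 FPKM in the control). Lox, the main crosslinking enzyme, had 449.5 to 587 FPKM under pressure and 287 FPKM in the control, and its change met the rule at -80 mmHg alone.

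The general folding genes passed the rule at no pressure. Serpinh1, the collagen chaperone HSP47, had 556 to 596 FPKM under pressure and 549.9 FPKM in the control. P4hb, the prolyl hydroxylase beta subunit, had 481 to 559.6 FPKM under pressure and 449.7 FPKM in the control. P4ha1, a catalytic subunit, had 82.1 to 101 FPKM under pressure and 82.3 FPKM in the control. Bmp1, which removes the carboxyl end, had 47.4 to 53.5 FPKM under pressure and 27.9 FPKM in the control, and its enhancer Pcolce had 279 to 320 FPKM under pressure and 541 FPKM in the control, both within the rule.

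Of 10 collagen receptors 6 were measured. Among them 1 was higher at all 4 pressures, against 6.49% of all genes, namely Itga11, the alpha 11 integrin that binds fibrillar collagen (20.02 to 23.5 FPKM under pressure, 1.95 FPKM in the control). The other 5 passed the rule at no pressure, among them Ddr2 (28.1 to 33.0 FPKM under pressure, 21.3 FPKM in the control) and Itgb1 (267 to 296 FPKM under pressure, 179 FPKM in the control). Of 7 collagen-degrading metalloproteinases 5 were measured, and 3 were lower at all 4 pressures, against 4.46% of all genes. Mmp2 had 2.43 to 3.33 FPKM under pressure and 398 FPKM in the control, Mmp13 had 2.14 to 2.92 FPKM under pressure and 75.5 FPKM in the control, and Mmp9 had 2.52 to 2.79 FPKM under pressure and 11.99 FPKM in the control. Mmp14, the membrane-type collagenase, had 37.5 to 45.6 FPKM under pressure and 89.0 FPKM in the control, past the rule at -160 and -200 mmHg. Mmp16, named after its values were seen, had 4.96 to 5.70 FPKM under pressure and 2.31 FPKM in the control, and was past the rule at -160 mmHg.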

How the data were processed

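RNA-seq of mouse BMSCs was available as 1 table of FPKM values per gene, deposited by the authors, with 1 library for each of 5 conditions. Per the submitters' processing notes, the tools named are featureCounts 1.5.0-p3, HISAT2 and SAMtools, and the build named is rn6, a rat genome. The gene IDs are mouse Ensembl IDs, so the mouse annotation (GENCODE M21, GRCm38) was used, which matched 55141 of 55401 IDs. The sources used here do not give the strand setting of the counting. FPKM multiplied by exon length gave whole reads within 0.001 for 98.8% of genes, and the step gave the library totals. For Col5a1 the exon length (8559 nt) was inferred as the single one that gives whole reads, and for Col25a1 3 lengths did, so its reads are not given.

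Values were compared as log2(FPKM + 1) over genes averaging 1 FPKM or more, and a gene was called at a difference of at least 1. Each pressure is compared with the same control library. Intervals at 95% are exact (Clopper-Pearson), and a gene without reads has a floor of 3. Without molecular identifiers reads may be copies of 1 molecule, so both cover counting error only. The collagen genes, their classes and the other lists were chosen with earlier results of these data known. All collagen genes are accounted for, with values in every library for those at a mean of at least 1 FPKM. From the other lists, genes past the rule at all 4 pressures and 11 genes fixed by name were described. Alternatives were pseudocounts of 0.1 and 5, no filter or one at a mean of 5 FPKM, quantile normalization, upper-quartile scaling, a trimmed mean of log ratios (30% off each end), totals without the 50 most abundant genes, a 1.5-fold threshold and removal of the trend with exon length (50 bins). The comparison of -200 with -80 mmHg below the size rule, the steps between pressures, coding transcript lengths and marker sums without the most abundant gene were added after the data were seen. The functions were tested on simulated reads. The work used matplotlib 3.10.9, scipy 1.17.1, pandas 2.3.3 and numpy 2.4.6 on Python 3.11.15.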

Additional observations from a re-analysis of the deposited data

How the results depend on the processing

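With 1 library per condition no replicate could be left out, and no paired analysis was possible because each group holds a single library. Col6a3, Col6a2 and Col5a3 stayed past the size rule below the control at all 4 pressures under every alternative run for single genes, and 20 of 21 chains stayed lower at -200 than at -80 mmHg under every alternative except the filters, which change the genes counted (30 lower with no filter, 15 at a mean of 5 FPKM or more). No chain passed the rule between pressures under any alternative, but at most 0.974% of all genes did so in the main setting. The trimmed mean lowered the median of all genes by 0.14 to 0.15, and quantile normalization by 0.11 to 0.13. With a pseudocount of 5 the chains higher numbered 1 at -80 mmHg and 0 at -120, -160 and -200 mmHg and at all 4, and the biosynthesis list had 3, 2 and 2 higher at -80, -120 and -160 mmHg and 2 and 1 lower at -120 and -160 mmHg. With a pseudocount of 0.1 5 chains were higher at -120 mmHg, 4 list members were lower at -80 mmHg and 5 higher at -200 mmHg. At a mean of at least 5 FPKM 2, 1, 2 and 1 chains were higher at -80, -120, -160 and -200 mmHg and 1 at all 4, 2 list members were lower at -120 and at -160 mmHg, and the chain medians were -0.13, -0.27, -0.54 and -0.44. With no filter the medians at -160 and -200 mmHg were -0.0093 and 8.0e-05, and the median difference between -200 and -80 mmHg was -0.11. With the trimmed mean set to 0 the medians were -0.12, -0.21, -0.37 and -0.37, 3 chains were higher at -80 mmHg, the list had 3 higher and 4 lower at -80 mmHg and 5 lower at -200 mmHg, and the class sums over the control were 0.703 (fibrillar), 1.06 (network), 0.478 (beaded) and 0.603 (FACIT). Under quantile normalization the medians were 0.36, 0.10, -0.037 and -0.12, beside 0.03 for all genes at each pressure and so above it at -80 and -120 mmHg, 2 chains were higher at -200 mmHg and 1 at all 4, the list had 4 lower at -80 mmHg, and the sums were 1.14, 1.25, 0.648 and 0.703, with 2.91 for transmembrane genes, in place of 0.793, 1.19, 0.539, 0.680 and 5.59. Upper-quartile scaling gave 0.798 for the fibrillar sum. With the length trend removed the medians were -0.19, -0.26, -0.37 and -0.36. At a 1.5-fold threshold 8, 8, 6 and 5 chains were higher and 5, 4, 7 and 7 lower at -80, -120, -160 and -200 mmHg, 5 were higher at all 4 and 1 was ordered from the control to -200 mmHg, while the list had 11, 9, 10 and 8 higher and 7, 6, 7 and 7 lower. The share of all genes past the rule is given for the main setting only and may itself move with the setting. The counts under the alternatives therefore have no background beside them and do not set the chains or the list apart from all genes. The cause was not tested in these cases. Of the recomputed values of single chains 551 kept their state, 29 lost a call, 8 gained one and 0 reversed. The 551 include values that passed the rule neither before nor after, so they are not a number of calls that held. Among the lost calls only those of Col1a1 at -160 and -200 mmHg, under quantile normalization, were of a lower chain. The others were of the higher chains Col27a1, Col23a1, Col20a1, Col8a1 and Col4a5. Depth limits the low genes: with 33 reads in the control, the Col23a1 ratio at -120 mmHg is known only within 7.38 to 15.6.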
